A study of Mus musculus with 9 samples.

Results

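The comparison described here set macrophages with the TTP-AA mutant against macrophages with GFP only, across all genes in ribosome footprints. Tristetraprolin (TTP, encoded by Zfp36) is a zinc-finger protein that binds AU-rich elements in the 3′UTRs of inflammatory mRNAs and recruits enzymes that remove the poly(A) tail. After lipopolysaccharide (LPS), the kinase MK2, which acts downstream of p38 MAPK, phosphorylates TTP on a pair of serines, 14-3-3 proteins bind the modified protein, and its decay activity is restrained. TTP-AA carries alanines at both serines and cannot be modified there. RiboSeq sequences the mRNA fragments that ribosomes protect, so a footprint value rises both with more mRNA and with more ribosomes on it, and the one cannot be told from the other here.

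The members were 6 of the 9 RiboSeq libraries of the series, 3 of cells with GFP–TTP-AA and 3 of cells with GFP only, and the other 3 libraries, of cells with GFP–TTP, entered as a reference. All cells were bone marrow-derived macrophages of TTP-deficient mice that had been immortalized with retroviral human c-MYC and a mutant HRAS, transduced with a tetracycline-inducible vector that held GFP alone or fused to wild-type TTP or TTP-AA, in each case without the TTP 3′UTR, and sorted for GFP. Every library came from cells given doxycycline at 1 µg/ml for 6 h and LPS at 1 µg/ml for 1 h. Each construct was studied in 1 transduced line, so the construct and its line cannot be told apart, and the 3 replicates of a line measure the spread of repeated experiments with it. In these bulk libraries, fewer cells of a type and less RNA per cell cannot be told apart either.

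The deposited values summed to between 3945427 and 8999392 in the GFP-only libraries and between 2570292 and 12804501 in the GFP–TTP-AA libraries, with replicate 2 the lowest in both lines. They proved to be values fitted by a model of construct and replicate, not observed counts: on the log2 scale each was the sum of a construct term, a replicate term and a library constant, with a residual SD of 2.7e-15. The ratio of GFP–TTP-AA to GFP-only was therefore the same in replicates 1, 2 and 3 for every gene, and the values printed by library below show levels and replicate effects only. All errors are the standard errors (SE, on the log2 scale) of the study's own model. A gene counted as changed where its Wald test, the fold change over its SE against a normal distribution, had a Benjamini-Hochberg adjusted p under 0.05 among 10103 genes with a mean scaled value of at least 10.

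The macrophage identity of the cells held in the markers. All 10 macrophage markers passed the filter, with summed scaled values from 89868 to 108663 in the GFP-only libraries and from 102743 to 125188 in the GFP–TTP-AA libraries, and of these Emr1 (Adgre1, F4/80) and Mpeg1 (perforin-2) rose, by 0.54 ± 0.16 (SE) and 0.70 ± 0.16 on the log2 scale. Among 35 markers of neutrophils, mast cells, dendritic cells, B cells, T and NK cells, fibroblasts and epithelial cells, the alarmin subunit S100a8 alone passed the filter, and of further neutrophil genes outside those 35 the collagenase Mmp8 did so too, with a log2 fold change of 0.36 ± 0.17 and an adjusted p of 0.28. The scaled values of S100a8 were 39.6, 23.5 and 21.2 with GFP only and 82.3, 48.4 and 43.8 with GFP–TTP-AA, a log2 fold change of 1.05 ± 0.25 with an adjusted p of 0.0024. The neutrophil markers Elane, Mpo, Camp, Ltf, Ngp, Ly6g and S100a9 stayed under the filter.

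Zfp36 itself (ENSMUSG00000044786, GRCm38 chr7:28376784-28380253, minus strand) rose, as the labels require of a line that carries a TTP transgene. Its scaled values were 443, 436 and 500 in the GFP-only libraries and 1487, 1456 and 1671 in the GFP–TTP-AA libraries, and the groups did not overlap. The log2 fold change was 1.74 ± 0.25 with an adjusted p of 2.4e-09. The GFP-only cells were TTP-deficient as well, and the source of their Zfp36 footprints was not tested.

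In all, 305 genes changed, which is 3.02% of the genes tested: 176 rose (1.74%) and 129 fell (1.28%). These shares are the reference for the counts within gene lists below. The lists were written with earlier results of these data known, and none was tested as a set. The median log2 fold change over all tested genes was 0.00. The median absolute log2 fold change was 0.76 among the genes that rose and 0.69 among those that fell. Of the 305, 58 exceeded 2-fold, 42 upward and 16 downward. These sizes are of fold changes that the authors' model shrank toward 0. The fitted values of the groups did not overlap for 256 of the 305 changed genes, against 26.9% of all tested genes. The replicate terms set that share together with the fold change, and it is no measure of error. The same holds wherever overlap is given for a single gene.

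**Figure D1:**
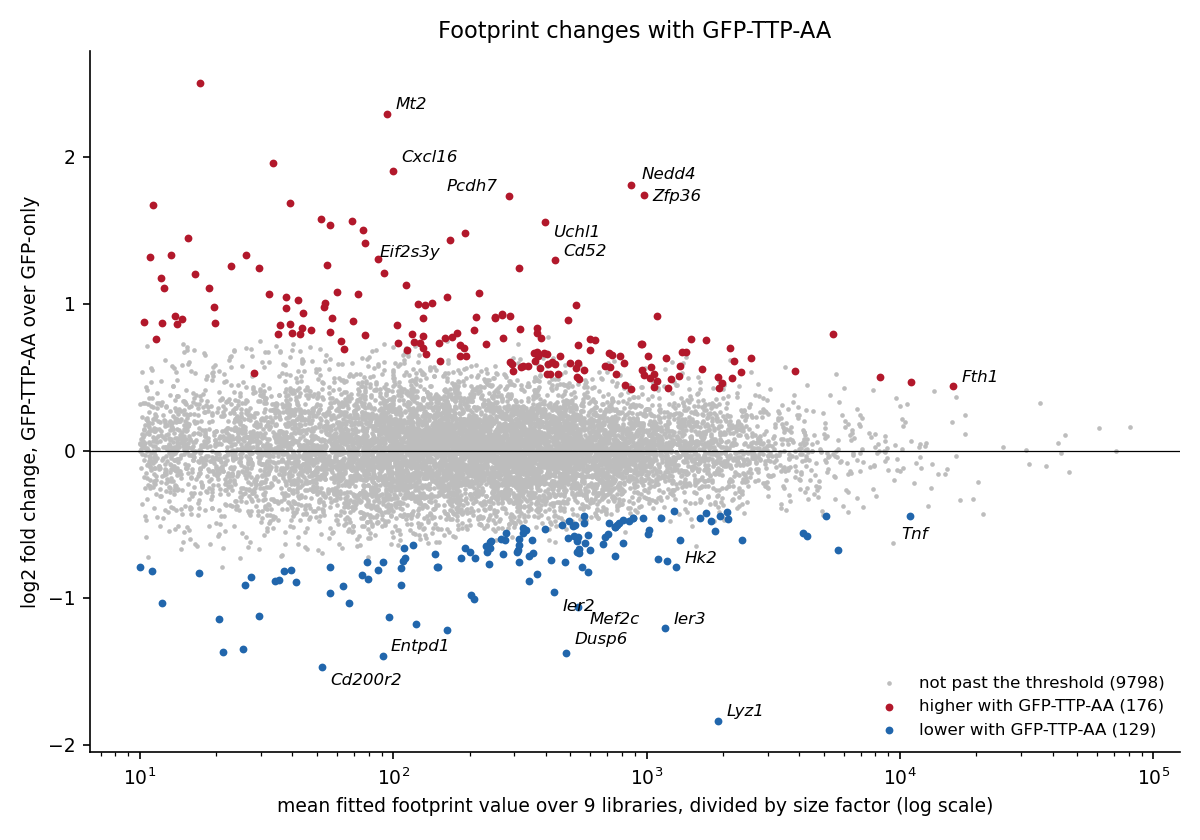
Log2 fold change of GFP-TTP-AA over GFP-only (vertical axis) against the mean scaled footprint value of the gene over 9 libraries (horizontal log axis), 1 point a gene, with the 176 genes that rose in red, the 129 that fell in blue and the others in grey. Mt2 at 2.29 and Cxcl16 at 1.91 lie near the top, Lyz1 at -1.83 lies lowest, and Tnf at -0.63 has a high level but did not pass the threshold.

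Several early-response genes fell. Ier3 (IEX-1), an immediate-early regulator of survival and ERK signalling located at GRCm38 chr17:35821684-35822923, had scaled values of 1715, 1702 and 1427 with GFP only and of 747, 737 and 618 with GFP–TTP-AA. Every GFP–TTP-AA value lay under every GFP-only value, and the gene fell by 1.20 ± 0.16 on the log2 scale (adjusted p of 2.3e-10). Dusp6 (MKP-3), the phosphatase that inactivates ERK, had values of 951, 891 and 218 with GFP only and of 369, 343 and 84.0 with GFP–TTP-AA. Replicate 3 was low in both lines and the groups overlapped, and the log2 fold change within each replicate was -1.37 ± 0.21. The nuclear immediate-early protein Ier2 went from 690, 609 and 326 to 356, 312 and 167, a change of -0.96 ± 0.21 with groups that also overlapped. Klf2, a transcription factor that dampens macrophage activation, fell by 0.75 ± 0.22 (adjusted p of 0.032). Of the 25 tested AP-1 and immediate-early factors these 3 genes, Ier3, Ier2 and Klf2, fell, and the AP-1 subunit Fosl1 (FRA-1) rose by 0.92 ± 0.17, while the median of the list was -0.05.

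Of 29 cytokines and growth factors tested, 3 fell and none rose, beside 1.28% and 1.74% of all tested genes. Oncostatin M (Osm), an IL-6 family cytokine, went from 286, 200 and 203 with GFP only to 123, 85.6 and 86.9 with GFP–TTP-AA, with no overlap between the groups. Its log2 fold change was -1.22 ± 0.22, with an adjusted p of 1.2e-05. Il23a, the p19 subunit of IL-23, was scarce, at 15.8, 19.2 and 15.7 with GFP only and 7.75, 9.36 and 7.67 with GFP–TTP-AA (log2 fold change -1.03 ± 0.24). Its geometric means were 16.8 in the control line, 11.6 in the wild-type line and 8.22 in the mutant line. Its entry into the test thus leaned on the control line. Hbegf, a membrane-anchored ligand of the EGF receptor, fell by 1.12 ± 0.25 from 29.1, 42.7 and 30.5. Both Il23a and Hbegf missed the threshold once a pseudocount of 10 was added to the values. The median of the list was -0.01.

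Tnf, the cytokine most closely tied to TTP, had the highest level of these genes and did not pass the test. Its values were 11850, 11562 and 12445 with GFP only and 7703, 7468 and 8045 with GFP–TTP-AA. The SE of 0.25 for a log2 fold change of -0.63 gave an adjusted p of 0.16 in the Wald test. The fitted values of the groups did not overlap, as in 26.9% of all tested genes, which is no measure of error.

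**Figure D2:**
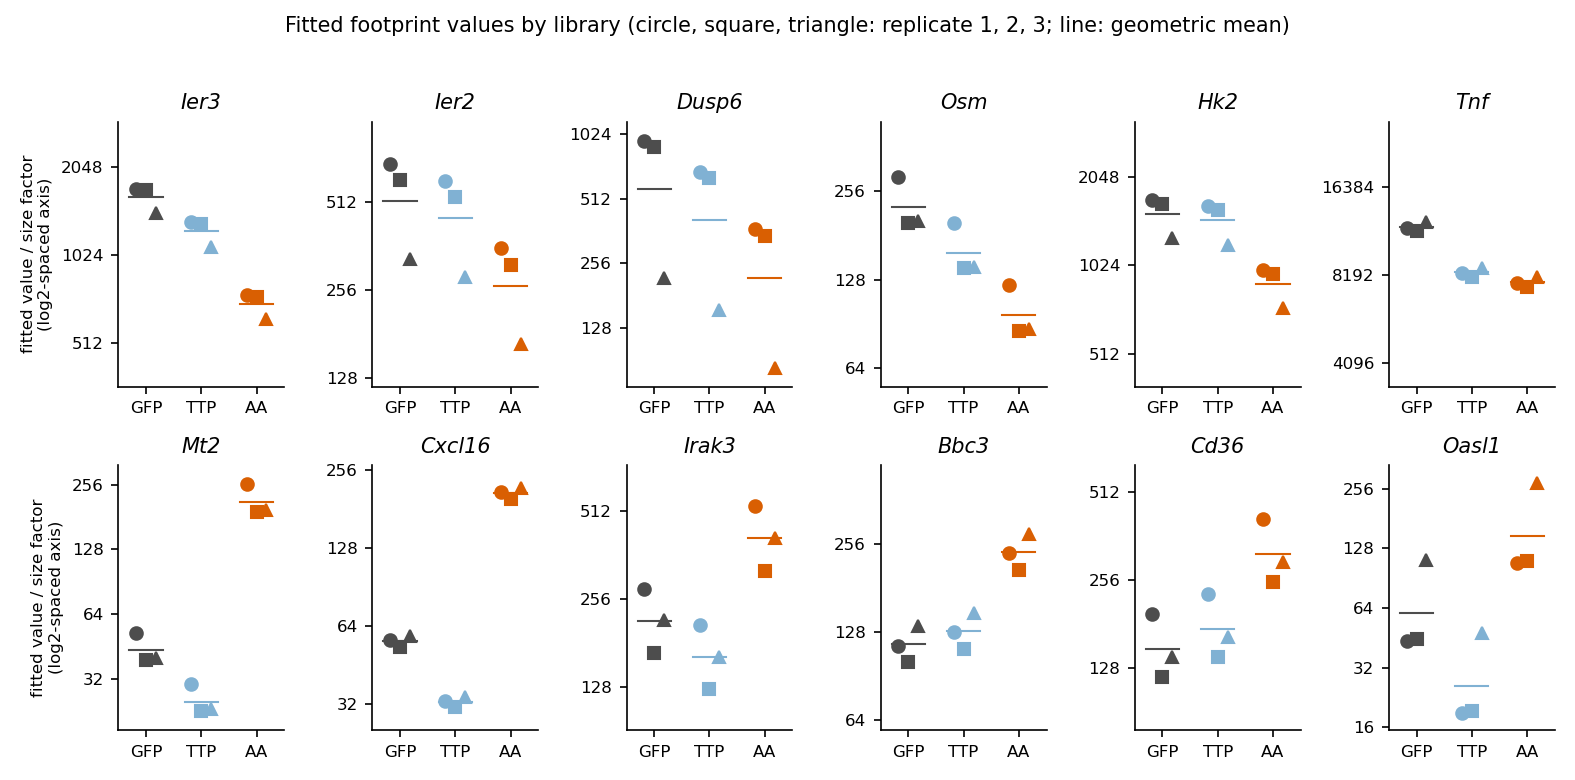
Fitted footprint values divided by the size factor (vertical axes spaced in log2 units) for 12 genes in the 9 libraries, grouped by construct, with a symbol for each replicate and a line at the geometric mean. The replicate pattern is the same in each group because the deposited values are fitted. Ier3 lies at 618 to 747 with GFP-TTP-AA and at 1427 to 1715 with GFP only, and Mt2 at 191 to 257 against 39.1 to 52.2.

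The annotated 3′UTRs of these genes were searched for the pentamer ATTTA, the core of AU-rich elements, and for the nonamer TTATTTATT, to which TTP binds tightly, on the sense strand and with overlapping matches counted. The longest 3′UTR of each gene in GENCODE vM21 was used, which covered 9941 of the tested genes. The nonamer was present in 18 of the 128 genes that fell and had an annotated 3′UTR (14.1%), in 12 of the 174 that rose (6.90%) and in 827 of all 9941 (8.32%). Zfp36 was among the 12, although the construct lacks the TTP 3′UTR, and without it the count was 11 of 173 (6.36%). ATTTA was present in 85.2% of the genes that fell, 67.8% of those that rose and 70.8% of all. The 3′UTRs were longer in the genes that fell, with a median of 1343.5 nt against 984.5 nt in those that rose and 1186 nt over all, and ATTTA occurred 2.23, 1.68 and 1.84 times per 1000 nt in that order. The nonamer occurred 12.8 times per 100000 nt in the genes that fell, and 8.75 times once Eno2, which alone held 10 overlapping matches, was left out. The rate was 8.81 in the genes that rose, 8.42 in them without Zfp36, and 6.88 over all. Among the genes that rose, Nufip1 alone held 8 matches, and the rate without it was not computed. The rates of the genes that rose and of those that fell are therefore not ranked.

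The sites below, in DNA letters and read 5′ to 3′ on the gene's strand in GRCm38, show the first nonamer (capitals) of named genes that fell, of Tnf, and of Cd36 and Casp4, which rose. They let the context be compared: in Tnf and Eno2 the nonamer opens a run of overlapping repeats, while in the others printed it stands alone. Repeats also occurred in genes not printed. Of those that rose, Nufip1 held 8 matches and Tm4sf1 and Map1b 2 each. Of those that fell, Gnl3l held 3 and Rab3a and Lmbrd2 2 each.
Il23a, chr10:128296183-128296212, minus strand: tagatgatggTTATTTATTctatttataag
Sort1, chr3:108359700-108359729, plus strand: ttaagccattTTATTTATTttgttttttac
Eno2, chr6:124760770-124760799, minus strand: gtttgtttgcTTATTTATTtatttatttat
Hk2, chr6:82725900-82725929, minus strand: tttatacgagTTATTTATTccagactgttt
Pfkm, chr15:98132339-98132368, plus strand: aaaataagctTTATTTATTtctttgtgata
Zfp36l2, chr17:84184913-84184942, minus strand: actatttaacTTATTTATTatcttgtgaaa
Tnf, chr17:35199688-35199717, minus strand: tttgcacttaTTATTTATTatttatttatt
Cd36, chr5:17782313-17782342, minus strand: tcacagtatgTTATTTATTgtattttattt
Casp4, chr9:5336741-5336770, plus strand: gaaatttgttTTATTTATTtgtgtacataa

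Over all tested genes the difference by nonamer was small. The median log2 fold change was 0.01 in 9114 genes with no nonamer, -0.06 in 641 genes with 1 and -0.08 in 186 genes with 2 or more, whose median 3′UTR lengths were 1105, 2230 and 2895 nt. Over GFP only, the GFP–TTP line, which shares the control libraries, had medians of 0.00, -0.02 and -0.02 in the same genes. Among 3′UTRs of 2000 to 4000 nt, a window set after the first values were seen, the medians were -0.01 without and -0.05 with the nonamer, and 1.82% and 1.37% of the genes fell. Ier3, Dusp6, Osm and Hbegf held no nonamer in these annotated 3′UTRs but 5, 1, 6 and 4 ATTTA pentamers. A match is a string of letters, not a measured binding site.

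Glucose use was represented among the genes that fell by 3 enzymes of 42 tested genes of glycolysis, the pentose phosphate pathway and the hypoxia response, with none rising and a list median of -0.01. Of all tested genes, 1.28% fell and 1.74% rose. Hexokinase 2 (Hk2), which traps glucose as glucose 6-phosphate, had values of 1708, 1662 and 1270 with GFP only and 990, 958 and 732 with GFP–TTP-AA. The ranges did not overlap, and the log2 fold change was -0.79 ± 0.15 (adjusted p of 4.7e-05). The muscle-type phosphofructokinase Pfkm, at the committed step of glycolysis, fell by 0.74 ± 0.16 from 493, 544 and 434. Enolase 2 (Eno2), the neuronal isoform of an enzyme late in glycolysis, fell by 0.97 ± 0.23 from 67.2, 78.6 and 74.0. The sites of all 3 genes are among those printed above.

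Of the TTP relatives, Zfp36l2 fell by 0.63 ± 0.17, from 857, 775 and 683 with GFP only to 558, 501 and 442 with GFP–TTP-AA, with an adjusted p of 0.011 and no overlap. Among 43 genes of deadenylation, decapping and decay, which include the enzymes that TTP recruits, only Tob1, an antiproliferative adaptor of the CCR4–NOT deadenylase, passed the test. It fell by 0.79 ± 0.15 and the list median was 0.00. Of 25 MAPK pathway kinases, Map3k1 (MEKK1) fell by 0.69 ± 0.18 with a list median of -0.02. None of the 6 tested 14-3-3 genes passed, and the most abundant, Ywhae and Ywhag, had log2 fold changes of 0.01 ± 0.12 and -0.18 ± 0.14. Of the 27 mRNAs the study listed by their crosslinks to TTP, a list it chose with data from this experimental system, Ier3 fell and the actin-monomer binder Tmsb4x rose by 0.47 ± 0.12, and the median was -0.02.

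Other large decreases were spread over several functions. Lyz1, a lysozyme gene that resembles Lyz2 closely enough for reads to be misassigned, fell from 2799, 3758 and 3736 to 788, 1051 and 1046 (log2 fold change -1.83 ± 0.18). Mef2c, a myeloid transcription factor, fell by 1.06 ± 0.15 from 643, 761 and 635 to 309, 363 and 303. Sort1 (sortilin), a sorting receptor of the Golgi and endosomes, fell by 1.01 ± 0.19, and Plod2, a collagen lysyl hydroxylase, by 0.98 ± 0.19. The IL-17 receptor subunit Il17ra fell by 0.89 ± 0.19, the hepatocyte growth factor-like protein gene Mst1 by 1.18 ± 0.20, and the transporter gene Slc6a17 by 0.91 ± 0.23. At lower levels, the ectonucleotidase Entpd1 (CD39), which degrades extracellular ATP, went from 133, 111 and 92.6 to 51.0, 42.3 and 35.2 (-1.39 ± 0.24). The CD200 receptor relative Cd200r2 went from 63.8, 78.6 and 71.3 to 23.1, 28.3 and 25.7 (-1.47 ± 0.24). Pla2g4a, the phospholipase that frees arachidonic acid, fell by 0.61 ± 0.14 and was the only one of 14 tested genes of prostaglandin and leukotriene synthesis past the threshold.

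The metallothioneins Mt1 and Mt2 both rose. Mt2 (GRCm38 chr8:94172664-94173568, plus strand), a small cysteine-rich protein that buffers zinc and copper, had values of 52.2, 39.1 and 40.0 with GFP only and 257, 191 and 196 with GFP–TTP-AA, with a wide gap between the groups. Its log2 fold change was 2.29 ± 0.23, a 4.90-fold difference with an adjusted p of 8.9e-21. The neighbouring and more abundant Mt1 (chr8:94179082-94180327) went from 1286, 1039 and 1018 to 2059, 1654 and 1622, again without overlap, and rose by 0.67 ± 0.16. These were the only genes past the threshold among 20 metallothioneins and zinc transporters, whose median was 0.11.

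The metal response element, the site of the zinc sensor MTF1, has the core TGCACNC or TGCGCNC. In the window from 250 bases before to 50 after the RefSeq start (GRCm38.p6), both strands counted, Mt1 held 3 cores, Mt2 held 4 and the zinc exporter gene Slc30a1, also a target of MTF1, held 2, with a log2 fold change of 0.21 ± 0.22 that did not pass the test. At least 1 core was present in 28.2% of 27025 genes with a promoter in the table, and 4 or more in 0.588%. One stretch of each gene is printed to show the core (capitals) in place, as a description of letters and not of MTF1 binding.
Mt1, chr8:94179055-94179084, plus strand: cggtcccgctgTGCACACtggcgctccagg
Mt2, chr8:94172556-94172585, minus strand: gggacagagccTGCACACgccctcccccca

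Of 13 tested chemokines, 3 rose and none fell, and the median log2 fold change was 0.22, with 11 of the 13 above 0. The shares over all tested genes were 1.74% and 1.28%. Cxcl16, a membrane-bound chemokine and scavenger receptor for oxidized lipid, went from 56.3, 53.3 and 58.5 to 212, 199 and 219, a log2 fold change of 1.91 ± 0.21. The monocyte attractant Ccl7 rose by 0.73 ± 0.17 from 1011, 596 and 847 to 1684, 987 and 1402 in ranges that overlapped, with replicate 2 the lowest in both lines. Cxcl14, near the detection filter at 8.82, 9.39 and 7.91 with GFP only, rose by 1.17 ± 0.23 and missed the threshold with a pseudocount of 10. The filter is a mean of at least 10 over all 9 libraries. The geometric means of Cxcl14 were 8.68 in the control line, 8.08 in the wild-type line and 19.6 in the mutant line. It therefore entered the test through its level in the mutant line. Of 35 cytokine and chemokine receptors, the death receptor Fas, the common gamma chain Il2rg and the type I interferon receptor subunit Ifnar1 rose by 0.82 ± 0.21, 0.60 ± 0.18 and 0.56 ± 0.16, Il17ra fell, and the median was 0.25.

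Negative regulators of the LPS response moved in both directions. Of 30 tested, 5 rose and 2 fell, beside 1.74% and 1.28% of all tested genes, and the list median was 0.01. Irak3 (IRAK-M), an inactive kinase that blocks Toll-like receptor signalling, went from 277, 168 and 218 with GFP only to 531, 320 and 415 with GFP–TTP-AA. The 2 ranges did not overlap and the log2 fold change was 0.93 ± 0.21. The RNase genes Zc3h12c (Regnase-3) and Zc3h12a (Regnase-1) and the A20-binding adaptors Tnip1 and Tnip3 were the other genes of this list that rose. Zc3h12c did so by 0.89 ± 0.19 and Tnip1 by 0.76 ± 0.18. The genes that fell were Ier3 and Dusp6. Among 25 NF-κB subunits and kinases, the adaptor Traf1 rose by 0.90 ± 0.23 from 82.3, 150 and 385 and no other passed, with a median of 0.16. The 21 Toll-like receptors and adaptors had a median of 0.21, with 17 of them above 0 and Irak3 the only gene past the threshold. The study's own set of TNF and NF-κB genes, picked for these cells, had 6 of 114 members higher, none lower and a median of 0.10. The 6 were Traf1, Trim13, Tnip1, Lgals3bp, Nup62 and Zfp36, and the transgene fixed the rise of Zfp36 in advance.

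Interferon-stimulated genes rose in 5 of 61 tested cases and fell in none, with a median of 0.11. The shares over all tested genes were 1.74% and 1.28%. Oasl1, a 2′-5′ oligoadenylate synthetase-like protein that limits translation of Irf7, went from 43.8, 44.7 and 111 with GFP only to 109, 110 and 275 with GFP–TTP-AA. Replicate 3 was high in both lines, so the ranges overlapped, and the log2 fold change was 1.31 ± 0.23. The RNA sensor Ifih1 (MDA5) rose by 1.08 ± 0.24 and the guanylate-binding protein Gbp2 by 1.07 ± 0.24. The secreted galectin-3 binding protein Lgals3bp rose by 0.64 ± 0.14 and the ATPase Tor3a by 0.60 ± 0.16. In the GFP–TTP line the same list had a median of -0.40 over GFP only. No gene of MHC class I (19 tested, median 0.02) or class II presentation (7 tested, median 0.32) passed, and B2m and Cd74 had log2 fold changes of 0.31 ± 0.15 and 0.41 ± 0.16.

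Targets and regulators of p53 were higher in 6 of 36 tested cases and lower in 2, with a median of 0.08. Of all tested genes, 1.74% rose and 1.28% fell. The BH3-only protein gene Bbc3 (PUMA), which triggers mitochondrial apoptosis, went from 115, 101 and 135 to 238, 208 and 277, without overlap, and rose by 1.04 ± 0.20 (adjusted p of 4.7e-05). The autophagy regulator Dram1 rose by 0.90 ± 0.24, and Fas, Trp53inp1, Sesn2 and Phlda3 also rose. In contrast Pmaip1 (NOXA), another BH3-only protein gene, fell by 0.76 ± 0.18 from 456, 452 and 306, and the stress sensor Sesn1 fell by 0.73 ± 0.19. Cdkn1a (p21), the classical p53 target, had a log2 fold change of -0.41 ± 0.14 with an adjusted p of 0.093. Bbc3 and Pmaip1 were the only 2 of 13 BCL2 family genes past the threshold. Among 27 caspases, death receptors and inflammasome genes, Fas, the inflammatory caspase Casp4 (0.70 ± 0.21) and the inflammasome adaptor Pycard (0.43 ± 0.13) rose.

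Genes of lipid handling rose in 3 of 24 cases and fell in none (median 0.07), beside 1.74% and 1.28% of all tested genes. The scavenger receptor Cd36, which takes up oxidized lipoprotein, went from 196, 120 and 140 to 415, 252 and 295, without overlap, a log2 fold change of 1.08 ± 0.25. The oxysterol receptor Nr1h3 (LXRα) rose by 1.11 ± 0.25 from 13.3, 12.9 and 15.0, and the lipoprotein receptor Vldlr by 1.10 ± 0.24 from 8.41, 9.68 and 7.91, and both missed the threshold with a pseudocount of 10. The geometric means of Vldlr were 8.64 in the control line, 10.1 in the wild-type line and 18.6 in the mutant line. Its entry into the test thus leaned on the mutant line. In contrast, no gene of cholesterol and fatty acid synthesis passed (36 tested, median 0.00). The lysosomal phosphodiesterase Smpdl3a rose by 1.24 ± 0.17 from 273, 274 and 241 to 648, 646 and 568, while Sgsh and Ctsa, both lysosomal hydrolases, fell by 0.70 ± 0.19 and 0.44 ± 0.14.

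Some antioxidant and surface genes also rose. Of 28 NRF2 antioxidant and iron storage genes, the microsomal glutathione transferase Mgst1 rose by 0.91 ± 0.21 and the ferritin heavy chain Fth1 by 0.44 ± 0.14, with a median of 0.18 over the list. Of 28 genes of pericellular proteolysis and matrix contact, the integrins Itgb5 and Itga5, the proteoglycan Sdc1 and the TNF-releasing protease Adam17 rose, by 0.91 ± 0.19, 0.56 ± 0.17, 0.60 ± 0.15 and 0.58 ± 0.13, and the median was 0.20. Of 35 inhibitory and scavenger receptors, Pirb and Pilrb1 rose, with a median of 0.20. Of 55 actin cytoskeleton genes, Marcks, Cfl1 and Tmsb4x rose by 0.72 ± 0.20, 0.50 ± 0.12 and 0.47 ± 0.12. Among the largest changes outside the lists, the neuronal deubiquitinase Uchl1 rose by 1.55 ± 0.19 from 248, 283 and 264 to 731, 828 and 773, and the leukocyte surface peptide Cd52 by 1.30 ± 0.16. The liver-type glycogen phosphorylase Pygl rose by 1.13 ± 0.22 and the glutathione transferase Mgst2 by 1.01 ± 0.21.

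In the lists of core cellular machinery, individual genes passed. No cyclin or CDK inhibitor passed (20 tested, median -0.07), nor did any of 77 nuclear-encoded genes of oxidative phosphorylation (median 0.08). Of 52 replication and mitosis genes the spindle protein Prc1 fell by 0.47 ± 0.14, and of 44 genes of the ATF4 and unfolded protein responses Vldlr rose. Of 84 cytosolic ribosomal protein genes only Rps4l, a close copy of Rps4x whose reads are uncertain, passed, and the median was 0.02. Rps4l had geometric means of 6.58 in the control line, 6.13 in the wild-type line and 20.98 in the mutant line. It therefore entered the test through its level in the mutant line. Mrpl52 was the only one of 75 mitochondrial ribosomal genes past the threshold, rising by 0.77 ± 0.18. The proteasome subunits Psma6 and Psmc1, of 34 tested, rose by 0.50 ± 0.13 and 0.49 ± 0.13, and Eif2s3y, of 58 translation factors, rose by 1.43 ± 0.22.

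**Figure D3:**
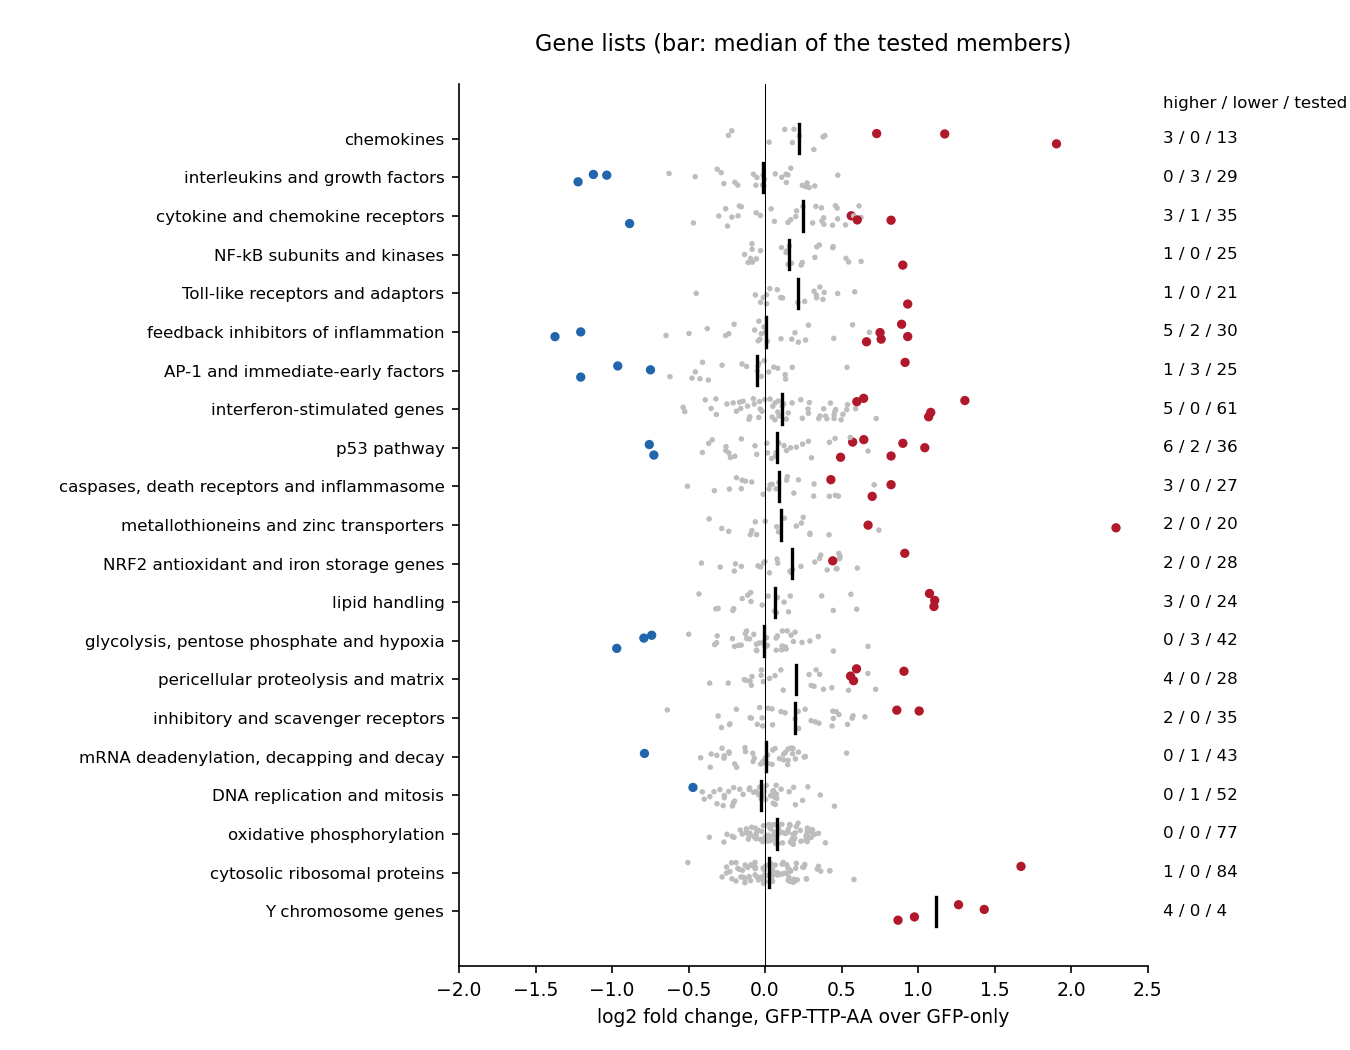
Log2 fold change of GFP-TTP-AA over GFP-only (horizontal axis) for each tested member of 21 gene lists (rows), with genes that rose in red, genes that fell in blue, others in grey, and a black bar at the median of the list. Most medians lie near the 0.00 of all tested genes, those of chemokines at 0.22 and of cytokine and chemokine receptors at 0.25 lie to its right, and the 4 genes of the Y chromosome have a median of 1.12.

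Eif2s3y lies on the Y chromosome, and all 4 tested Y-linked genes were higher in the GFP–TTP-AA line. Eif2s3y, a translation initiation factor subunit, went from 101, 119 and 145 to 274, 320 and 392, and the RNA helicase Ddx3y from 40.0, 41.4 and 39.5 to 96.5, 99.3 and 94.8. The demethylases Uty and Kdm5d rose by 0.98 ± 0.25 and 0.87 ± 0.23. The geometric means of Kdm5d were 9.69 in the control line, 9.15 in the wild-type line and 17.7 in the mutant line. Kdm5d therefore entered the test through its level in the mutant line. The GFP–TTP line had a median of -0.62 for the 4 Y-linked genes over GFP only. The proportion of cells that carry the chromosome was not measured, and the part of line differences in these values was not tested.

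Smaller shifts ran along some autosomes. The median log2 fold change was 0.13 on chromosome 16, 0.12 on chromosome 12 and 0.11 on chromosome 19, where 72.2%, 69.9% and 66.2% of the tested genes had a value above 0, and -0.09 on chromosome 3 and -0.08 on chromosome 11. Over the same GFP-only libraries, the GFP–TTP line had medians of -0.03, 0.02, 0.18, -0.18 and 0.03 on chromosomes 16, 12, 19, 3 and 11. The shifts on chromosomes 19 and 3 thus ran the same way in both lines. On chromosome 12, 14 of 349 tested genes rose and 1 fell, and on chromosome 16, 13 of 324 rose and 2 fell. The genes with the largest changes there were Pygl, Evl (an actin regulator) and Jdp2 (an AP-1 repressor) on chromosome 12, and 2510009E07Rik, Cd200r2 and Emp2 on chromosome 16. On chromosome 4, 14 of 636 tested genes rose and 1 fell, and on chromosome 7, 14 of 720 rose and 2 fell, with medians of 0.03. Over all tested genes, 1.74% rose and 1.28% fell. Subtracting the median of each chromosome left 279 changed genes, of which 247 were among the 305. Psma6 and Psmc1 on chromosome 12, Fth1 on chromosome 19 and Ifnar1 on chromosome 16 then lay short of the threshold, among others.

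**Figure D4:**
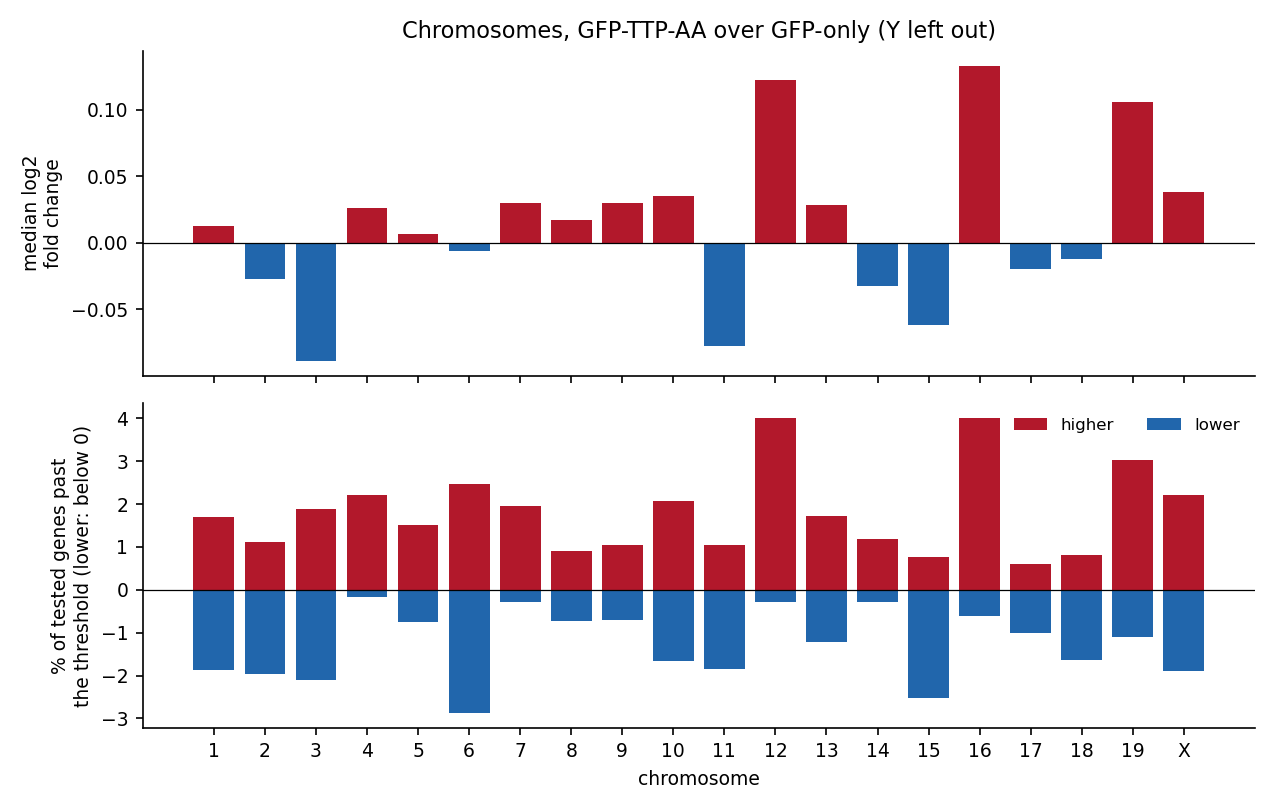
Median log2 fold change of GFP-TTP-AA over GFP-only by chromosome (upper panel) and the percentage of tested genes that rose or fell (lower panel, genes that fell drawn below 0), with the Y chromosome left out. Chromosomes 16, 12 and 19 have the highest medians, at 0.13, 0.12 and 0.11, and chromosomes 3 and 11 the lowest, at -0.09 and -0.08.

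To ask which changes were particular to the mutant, GFP–TTP-AA was compared with GFP–TTP directly. Between these lines 1036 of 10103 tested genes differed (10.3%), against 209 of 9938 (2.10%) for GFP–TTP over GFP only. The 2 lines also differed in footprints of Zfp36 itself, whose geometric means were 1535 with the mutant and 927 with the wild-type construct (log2 difference 0.73 ± 0.25, adjusted p of 0.040), and the part of this difference in the other genes was not tested. Both changes over GFP only share the control libraries, so their values are given side by side.

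Of the early-response and cytokine genes that fell, Ier3 had geometric means of 698 in the line with the mutant, 1236 with the wild-type construct and 1609 with GFP only. The log2 difference between the mutant and the wild type was -0.82 ± 0.16, with an adjusted p of 3.6e-05. Dusp6, Osm and Ier2 differed the same way, by -0.89 ± 0.21, -0.70 ± 0.22 and -0.77 ± 0.21, and so did Hk2 and Pfkm, by -0.72 ± 0.15 and -0.69 ± 0.16. For Il23a and Eno2 the differences of -0.50 ± 0.24 and -0.64 ± 0.23 did not pass, and for Tnf the difference was -0.11 ± 0.25 (adjusted p of 0.85), so that the interval of 1 SE on either side spans 0. For Klf2, Sgsh and Sesn1 the lines differed by 0.02 ± 0.22, -0.01 ± 0.19 and -0.08 ± 0.20.

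Of the 305 genes that changed with GFP–TTP-AA, 17 also passed the threshold with GFP–TTP over GFP only in the same direction and 24 in the opposite direction. Of the 112 named genes, most of them named because they changed with GFP–TTP-AA, 10 were among the 17. They were Nedd4, Pcdh7, Chchd10, Fosl1 and Zfp36, which were higher, and Lyz1, Zfp36l2, Klf2, Sgsh and Sesn1, which were lower. Nedd4, a HECT ubiquitin ligase that marks membrane proteins, was the exception in size: its scaled values were 133, 142 and 146 with GFP only and 467, 494 and 510 with GFP–TTP-AA, and its geometric mean with GFP–TTP was 1970.1, a difference between the constructs of -2.01 ± 0.16. No other of the 9 tested genes of its family passed over GFP only. The protocadherin Pcdh7 and the mitochondrial protein gene Chchd10 rose by 1.74 ± 0.20 and 1.48 ± 0.20 with GFP–TTP-AA and by 1.51 and 1.38 with GFP–TTP, and the lines differed by 0.23 ± 0.20 and 0.10 ± 0.20.

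**Figure D5:**
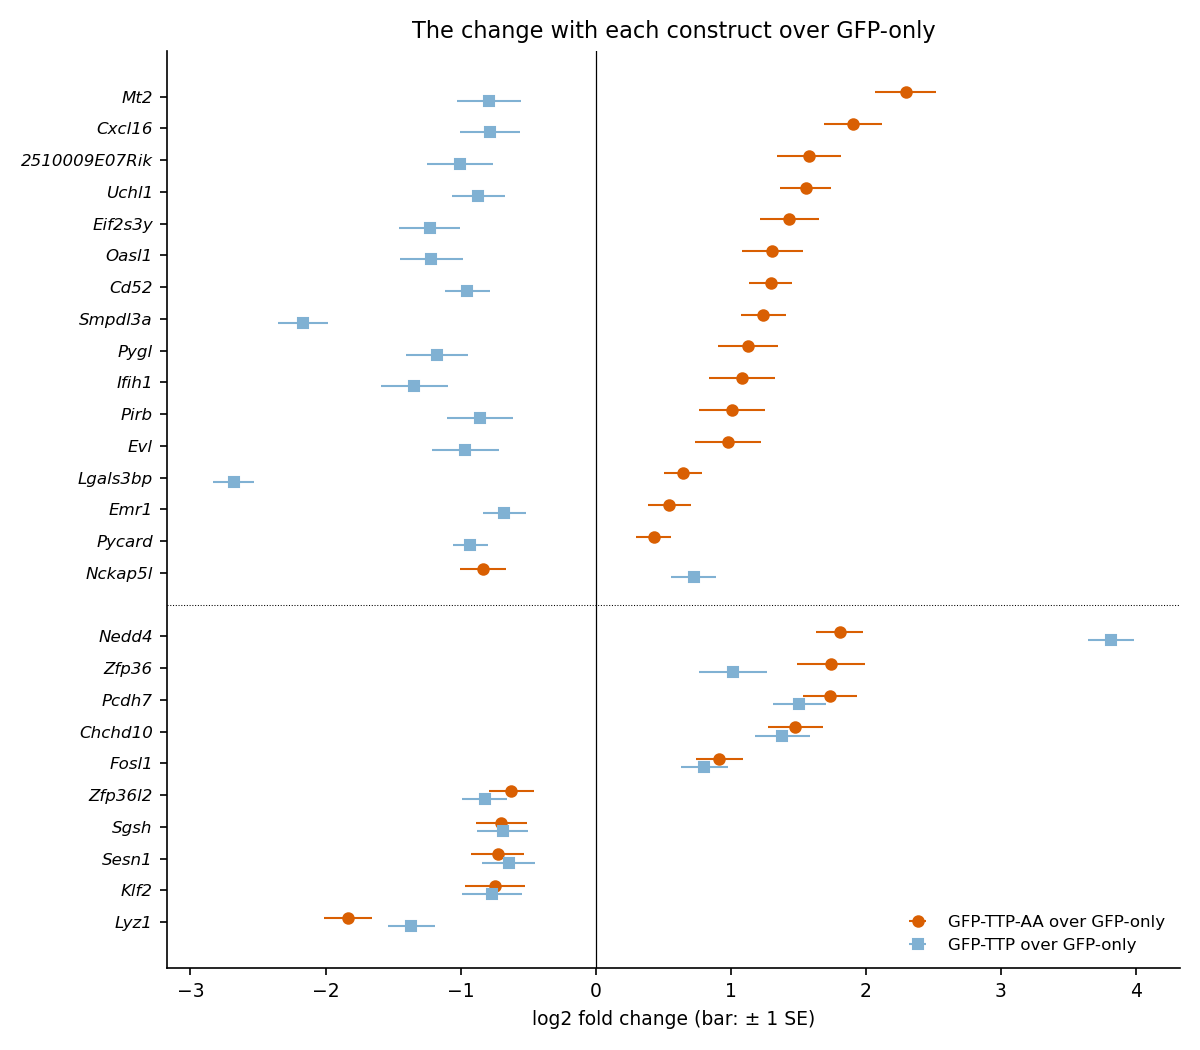
Log2 fold change over GFP-only with GFP-TTP-AA (orange circles) and with GFP-TTP (blue squares), with bars of 1 SE, for the named genes past the threshold with both constructs, above the dotted line those in opposite directions and below it those in the same direction. Mt2 lies at 2.29 and -0.79, Lgals3bp at 0.64 and -2.68, and Pcdh7 at 1.74 and 1.51.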

How the data were processed

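RiboSeq libraries of TTP-deficient immortalized macrophages were prepared with the ARTseq procedure and rRNA removal, 3 for each construct. The authors trimmed reads with Trim Galore, aligned them to mm10 (GRCm38) with TopHat2 2.0.12 (per the labels), counted them per gene with HTSeq and fitted DESeq2 1.6.3 with library date and construct. Reads that match close gene copies can be misassigned.

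The deposited "normalized counts" are on a linear scale and were treated as signal, because they equal values fitted by that model. The deposited standard errors of the fold changes are on the log2 scale. The authors' comparison tables also hold fold changes and p-values. Neither was used here, only the errors. The fitted values carry fold changes that the authors' model shrank toward 0.

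The table had 16932 lines, of which 11 repeated a gene, leaving 16921 genes. Values were divided by median-of-ratios size factors (0.415 to 2.12), and 10103 genes had a mean of at least 10 and an error. The log2 fold change was the mean over replicate numbers, divided by its error and tested against a normal distribution (two-sided), with Benjamini-Hochberg adjustment over all tested genes. The script was tested on simulated data. The difference between constructs was tested in the same way with its own errors. Observed spread between libraries cannot be had from fitted values, so no test used it.

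The named genes were Zfp36 and Tnf, the 12 largest changes each way among changed genes with a mean of at least 100, up to 5 changed members of each of 43 gene lists (or the most abundant members), all tested members of lists of 5 or fewer, and up to 3 genes on chromosomes whose shift is described. The comparison, the lists and the rules were chosen with earlier results of these data known. 3′UTRs came from GENCODE vM21, promoters from RefSeq, and printed sites were matched to GRCm38.p6 with samtools 1.23.1. Tables were computed with Python 3.11.15, numpy 2.4.6, pandas 2.3.3 and scipy 1.17.1, and figures drawn with matplotlib 3.10.9.

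The alternatives tried were no filter, a mean of at least 50, pseudocounts of 1 and 10, the median fold change set to 0, scaling to summed values, subtraction of the chromosome median, joint adjustment over 3 comparisons and thresholds of 0.01 and 0.1.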

Additional observations from a re-analysis of the deposited data

Results flagged for a closer look

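Of the 305 genes that changed with GFP–TTP-AA, 24 passed the threshold over GFP only in the opposite direction with GFP–TTP, 21 of them higher with GFP–TTP-AA and 3 lower. The 112 named genes, chosen largely for changing with GFP–TTP-AA, held 16 of the 24. The direct difference between the constructs is the one fold change minus the other, so its size follows from this choice of genes and is given as a description. In 15 of the 16 the gene was higher with GFP–TTP-AA and lower with GFP–TTP, and in 1, Nckap5l, the reverse held. Each construct was studied in 1 line, so construct and line cannot be told apart for any of them.

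On the log2 scale, with the SE of the difference between the constructs, the genes of the lists for interferon response, cell death and macrophage receptors differed as follows: the galectin-3 binding protein gene Lgals3bp by 3.33 ± 0.15, Oasl1 by 2.52 ± 0.23, the RNA sensor Ifih1 by 2.42 ± 0.25, the inflammasome adaptor Pycard by 1.36 ± 0.13, the inhibitory receptor Pirb by 1.86 ± 0.24 and the macrophage marker Emr1 by 1.22 ± 0.16. Of the others, the metallothionein Mt2 by 3.09 ± 0.23, the chemokine Cxcl16 by 2.69 ± 0.22, the lysosomal phosphodiesterase Smpdl3a by 3.41 ± 0.18 and the Y-linked Eif2s3y by 2.66 ± 0.22 were the largest, and 2510009E07Rik by 2.58 ± 0.24, Uchl1 by 2.42 ± 0.19, Pygl by 2.30 ± 0.23, Cd52 by 2.25 ± 0.16 and the actin regulator Evl by 1.94 ± 0.24 followed. Nckap5l differed by -1.56 ± 0.17. Over GFP only, Smpdl3a had log2 fold changes of 1.24 with GFP–TTP-AA and -2.17 with GFP–TTP, Ifih1 of 1.08 and -1.34, and Nckap5l of -0.84 and 0.73.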

How the results depend on the processing

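No paired analysis was possible because the deposited values are fitted and give no observed spread from which a paired error could be estimated. The fitted values already hold a replicate term, and the errors used are those of the authors' model with library date. Without observed values, leaving out each replicate was not run. The 305 changed genes became 321 with no filter and 255 with a mean of at least 50, and lay between 279 and 310 when the values were scaled or centred in another way or a chromosome median was subtracted. Of the settings tried, 3 moved the count by over 1.5 times. A pseudocount of 10, applied with unchanged errors, gave 197 genes, 115 higher and 82 lower, a threshold of 0.01 gave 158 and a threshold of 0.1 gave 491. Scaling to summed values gave 165 higher and 145 lower genes. After subtraction of the chromosome median, which on the Y chromosome is taken over its 4 tested genes and so centres them on 0 by construction, the log2 values of the Y-linked Kdm5d and Uty were -0.25 and -0.14 instead of 0.87 and 0.98. Named genes kept direction and call in 741 pairs of gene and setting, changed sign in 2 and lost the call in 28, among them Il23a, Hbegf, Cxcl14, Vldlr and Nr1h3 at a pseudocount of 10, and Ddx3y and Eif2s3y after subtraction of the chromosome median. Scarce genes such as Il23a, Vldlr and Nr1h3 rest on few reads, and the depth of observed counts is not known from fitted values.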
